A study of Homo sapiens with 4 samples.

Results

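Collagen chain genes encode the polypeptides that fold into the collagen triple helix. They were taken here as the genes whose symbol in the platform annotation is COL, a number, A and a number, on probe sets assigned to 1 gene. This gave 43 of the 19775 genes named on the array, measured by 112 probe sets, the groups of short probes that report a transcript. Where a gene had several probe sets, the one highest on average across the 4 arrays stood for it, and the others are given beside it. Of the 43 genes, 16 had a mean at or above the filter level of 4.637 on the log2 scale, the median over all probe sets, and entered the test; the other 27 lay below it.

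The arrays were Affymetrix HG-U133 Plus 2.0, hybridised with total RNA from UM-UC-3 cells, a human bladder cancer line in long use, and the study asked which genes RhoGDI2 regulates. Control cells carried GFP from an empty vector together with a puromycin selection plasmid; the other cells carried GFP fused to RhoGDI2, the product of ARHGDIB. Both lines were stably transfected and sorted by fluorescence, and RNA was taken in log phase growth. Each group had 2 arrays, from preparations A and B made at different times, which the labels pair across the groups. For the GFP-RhoGDI2 arrays the description label speaks of control cells; their title, source name and genotype name GFP-RhoGDI2 and were used. What drives the construct, and if each preparation was a new transfection, is not stated in these sources, so differences fixed when each line was made cannot be told apart from those due to RhoGDI2.

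A collagen molecule is a trimer of chains built from repeats of glycine and 2 other amino acids. Prolyl and lysyl residues are hydroxylated in the endoplasmic reticulum, procollagen is trimmed outside the cell, and fibrils are crosslinked by lysyl oxidases. Fibrillar collagens bear tension in stroma, type IV collagen forms the network of basement membranes, type VI forms beaded filaments, FACIT collagens decorate fibril surfaces, and other members span the plasma membrane or carry large non-helical domains. Stromal fibroblasts make most interstitial collagen, and carcinoma cells also make collagen chains.

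The stretches upstream of the transcription starts of the 5 collagen chain genes that differed between the lines are printed. Printed with them is the stretch between the divergent starts of COL4A1 and COL4A2, which were not shown to differ. The printed stretches are RefSeq sequences of GRCh38.p14, 150 bases ending just before the annotated start, or the 126 bases between the COL4A1 and COL4A2 starts. Capitals mark the GC box GGGCGG, the TATA box TATAAA and the CCAAT box CCAAT, searched on both strands; overlapping matches were counted separately. COL18A1 has 2 annotated starts, and of 2 nearly coincident COL5A1 starts 1 is shown. The COL5A1 stretch is chr9:134641653-134641802, that of COL6A2 chr21:46097962-46098111 and that of COL13A1 chr10:69801756-69801905, all on the plus strand. The COL18A1 stretches are chr21:45405015-45405164 and chr21:45455372-45455521 on the plus strand, that of COL12A1 is chr6:75206054-75206203 on the minus strand, and the COL4A1 to COL4A2 stretch is chr13:110307158-110307283, given on the plus strand, the direction of COL4A2.
COL5A1: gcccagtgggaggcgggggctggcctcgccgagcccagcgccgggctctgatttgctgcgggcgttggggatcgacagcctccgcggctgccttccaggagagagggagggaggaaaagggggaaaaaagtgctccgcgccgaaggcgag
COL6A2: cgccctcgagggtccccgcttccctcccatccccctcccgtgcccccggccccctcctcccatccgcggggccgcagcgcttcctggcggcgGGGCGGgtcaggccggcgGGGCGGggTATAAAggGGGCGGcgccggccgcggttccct
COL13A1: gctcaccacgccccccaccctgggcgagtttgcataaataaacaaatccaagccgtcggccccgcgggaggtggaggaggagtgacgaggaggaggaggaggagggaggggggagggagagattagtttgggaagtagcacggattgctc
COL18A1, upstream start: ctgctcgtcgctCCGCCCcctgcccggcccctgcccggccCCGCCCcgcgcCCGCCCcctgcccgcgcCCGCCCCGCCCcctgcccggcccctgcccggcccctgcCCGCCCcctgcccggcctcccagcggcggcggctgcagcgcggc
COL18A1, downstream start: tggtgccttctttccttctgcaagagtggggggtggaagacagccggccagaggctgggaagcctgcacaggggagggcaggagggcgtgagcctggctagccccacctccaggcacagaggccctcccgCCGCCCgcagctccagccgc
COL12A1: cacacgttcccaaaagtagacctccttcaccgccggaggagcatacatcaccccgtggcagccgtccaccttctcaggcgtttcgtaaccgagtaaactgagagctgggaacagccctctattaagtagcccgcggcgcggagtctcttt
Between COL4A1 and COL4A2: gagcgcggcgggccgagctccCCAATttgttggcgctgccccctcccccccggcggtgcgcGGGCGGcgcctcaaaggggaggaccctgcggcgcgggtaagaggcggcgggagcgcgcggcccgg

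These promoters did not share the 3 motifs. The COL6A2 stretch held 3 GC boxes and 1 TATA box, and the upstream COL18A1 stretch 6 GC boxes in 90.0% G and C, while the COL5A1, COL13A1 and COL12A1 stretches held none of the 3 motifs. The COL4A1 to COL4A2 stretch held 1 GC box and 1 CCAAT box. Of 35116 promoter stretches of 150 bases in the table, 36.8% held a GC box, 6.7% a TATA box and 23.5% a CCAAT box. Of 19 such stretches of tested collagen chain genes, 12 held a GC box, 2 a TATA box and 3 a CCAAT box. Promoters were listed for 31 of the 43 genes. A match is a description of the letters and shows no binding.

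Of the 16 tested collagen chain genes, 4 were higher and 1 was lower in the GFP-RhoGDI2 line. The rises were in COL6A2, COL18A1, COL5A1 and COL13A1, between 1.62-fold and 2.01-fold, and the fall was in COL12A1, 1.49-fold. A gene was called at an adjusted p under 0.05 in limma's moderated test with preparation as a block, adjusted over all 27307 probe sets tested. Among all 12123 tested genes, 8.17% were called, 4.83% higher and 3.35% lower. The median log2 difference of the 16 genes was -0.06, beside -0.01 over all tested genes, and 7 of the 16 lay above 0, so the chains did not move one way as a group. At an unadjusted p under 0.05, 4 were higher and 5 lower. In preparation A the median was -0.11 and in preparation B 0.03.

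**Figure D1:**
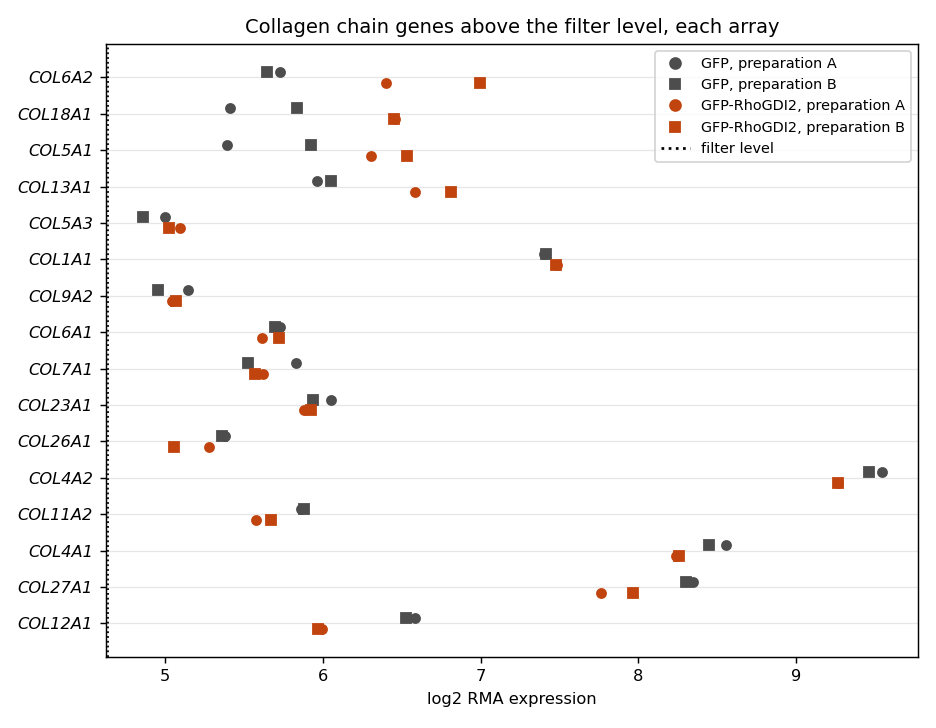
Log2 RMA expression (horizontal axis) of the 16 collagen chain genes above the filter level, with a point for each array: grey for GFP, orange for GFP-RhoGDI2, circles for preparation A and squares for preparation B. The orange points lie right of both grey points for COL6A2, COL18A1, COL5A1 and COL13A1 and left of both for COL12A1 and COL27A1 among others; levels of different genes come from different probes and are not to be compared.

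**Figure D2:**
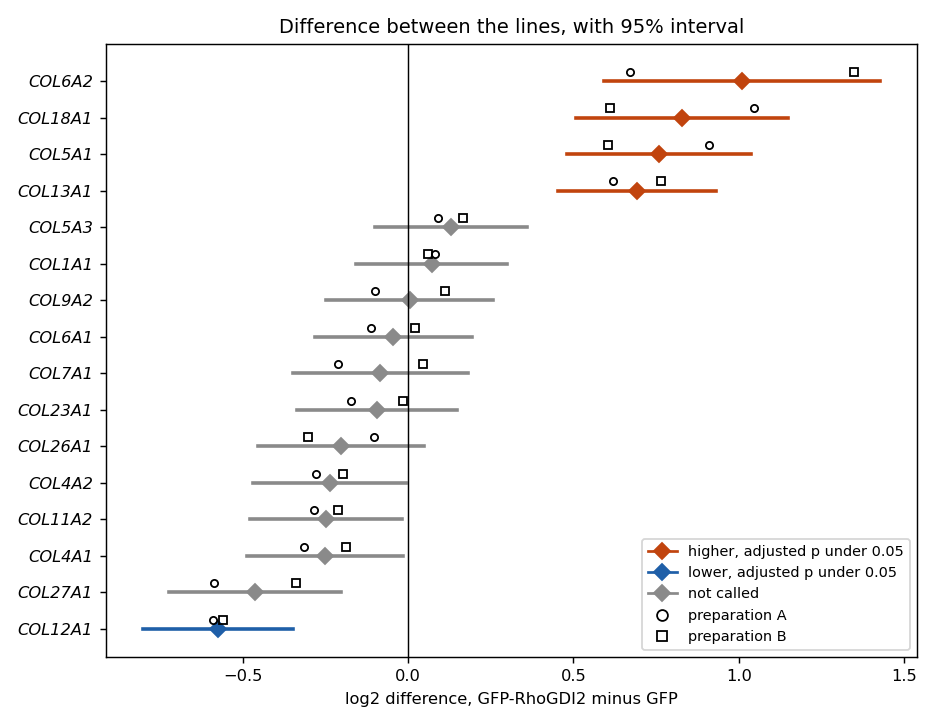
Log2 difference, GFP-RhoGDI2 minus GFP, for the same 16 genes (diamonds) with the 95% interval of the limma fit, which is not adjusted for the number of genes, and the difference within each preparation (open symbols). COL6A2, COL18A1, COL5A1 and COL13A1 stand apart at 0.69 to 1.01, the other genes lie at or below 0.13, and COL12A1 is the lowest at -0.58.

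Among the fibrillar collagens, COL5A1 rose. It encodes the alpha 1 chain of type V collagen, which nucleates and limits the width of type I fibrils. In preparations A and B, its probe set 203325_s_at read 5.40 and 5.93 in GFP cells and 6.31 and 6.53 in GFP-RhoGDI2 cells; values are given in this order throughout. Both GFP-RhoGDI2 arrays were higher than both GFP arrays, and the GFP arrays lay further apart than the GFP-RhoGDI2 arrays. The log2 difference was 0.76 (SE 0.112, 95% interval 0.48 to 1.04, limma adjusted p = 0.0199), or 1.69-fold. Without the preparation block the difference was the same and the call was lost (adjusted p = 0.0705). A further COL5A1 probe set, 212488_at, differed by 0.68 (adjusted p = 0.0559), and the remaining one, below the filter level, by 0.47. In GFP cells 212488_at read 5.83 and 5.37, so its lower GFP array was B, while that of 203325_s_at was A. Here and below, groups that do not overlap add little to a call. The uncalled COL1A1, COL23A1 and COL5A3 did not overlap either, and the share without overlap over all genes was not counted.

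The partner chains of COL5A1 were measured less clearly. COL5A2, the usual partner in the type V trimer, lay below the filter level at 3.63 and 3.46 in GFP and 3.82 and 4.13 in GFP-RhoGDI2 cells, a difference of 0.43 that was not tested. COL5A3, encoding an alternative partner chain, differed by 0.13 (95% interval -0.10 to 0.36, adjusted p = 0.430). Whether COL5A1 differed from its partners was not tested.

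COL27A1, a fibrillar collagen gene of cartilage and developing tissues, read 8.35 and 8.31 in GFP cells and 7.76 and 7.96 in GFP-RhoGDI2 cells. The groups did not overlap, and the log2 difference of -0.46 (SE 0.105) just missed the threshold (limma adjusted p = 0.0574). A second probe set of the gene, 225288_at, was called at -0.61 (adjusted p = 0.0222), and another, 225292_at, was at -0.05 (adjusted p = 0.822). With an intensity trend in the moderation the highest probe set was called too (adjusted p = 0.00239), in a fit that called 23.7% of all tested genes.

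The chains of type I collagen, the main fibrillar collagen of stroma, were not shown to differ. COL1A1 read 7.40 and 7.42 in GFP cells and 7.48 and 7.48 in GFP-RhoGDI2 cells by 217430_x_at, a difference of 0.07 (95% interval -0.16 to 0.30, adjusted p = 0.670). The other 4 COL1A1 probe sets lay below the filter level, at means of 2.96 to 4.60, with differences between -0.29 and 0.46. The level of COL1A1 thus rests on 217430_x_at alone, of a class that, like _s_at, can match several transcripts. COL1A2 lay below it too, at 4.29 to 4.37 on the 4 arrays. COL11A2, a chain of type XI collagen, was lower by 0.25 by one probe set (95% interval -0.48 to -0.02, adjusted p = 0.164) and at 0.02 by another (adjusted p = 0.946). COL3A1, COL2A1, COL11A1 and COL24A1 were below the filter level, with COL2A1 the furthest from 0 at -0.30.

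Type VI collagen gave the largest difference among the representing probe sets, and its probe sets disagreed. COL6A2, encoding the alpha 2 chain, read 5.73 and 5.65 in GFP cells and 6.40 and 6.995 in GFP-RhoGDI2 cells by 209156_s_at. The groups did not overlap, and the GFP-RhoGDI2 arrays differed by more than the GFP arrays. The log2 difference was 1.01 (SE 0.169, 95% interval 0.59 to 1.43, limma adjusted p = 0.0273), or 2.01-fold; it was 0.67 in preparation A and 1.35 in preparation B. The second COL6A2 probe set, 213290_at, differed by 0.15 (95% interval -0.08 to 0.38, adjusted p = 0.351).

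COL6A1, encoding the alpha 1 chain of the same trimer, had 8 probe sets. The one with the highest mean, 212940_at, read 5.73 and 5.70 in GFP cells and 5.62 and 5.72 in GFP-RhoGDI2 cells, and the groups overlapped (difference -0.04, 95% interval -0.28 to 0.19, adjusted p = 0.806). Another, 213428_s_at, read 4.21 and 3.99 in GFP cells and 5.98 and 6.25 in GFP-RhoGDI2 cells, a rise of 2.02 (SE 0.137, adjusted p = 0.00191). Its GFP values lie below the filter level, so the size of that rise is uncertain. Of the remaining COL6A1 probe sets, 212937_s_at and 212091_s_at differed by 0.28 (adjusted p = 0.218) and 0.24 (adjusted p = 0.202), and 4 were below the filter level, at -0.11 to 0.11. Probe set 213428_s_at therefore stands apart from the other 7, and the part of the transcript it reads was not analysed here. COL6A3, encoding a longer partner chain, was below the filter level at 4.02 to 4.14 on the 4 arrays, and COL6A5 and COL6A6 were below it as well.

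**Figure D3:**
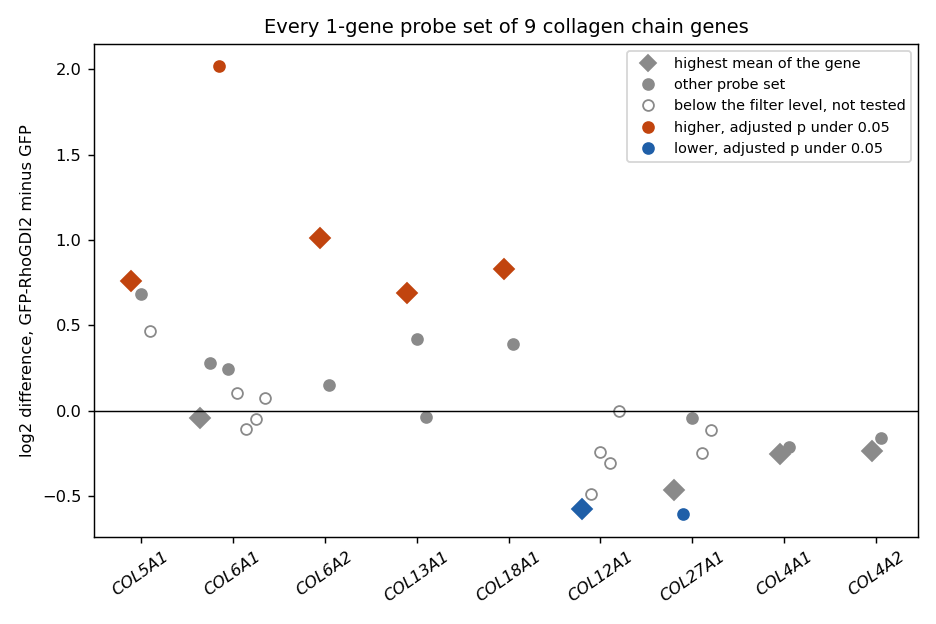
Log2 difference, GFP-RhoGDI2 minus GFP (vertical axis), for every 1-gene probe set of 9 collagen chain genes; the diamond is the probe set with the highest mean, circles are the others, open symbols were below the filter level and not tested, and colour marks calls. The COL6A1 probe set at 2.02 lies far from the other 7, while the 2 probe sets of COL4A1, and those of COL4A2, lie close together between -0.25 and -0.16.

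COL18A1 rose. It encodes a proteoglycan collagen of basement membranes whose C-terminal fragment is endostatin, an inhibitor of angiogenesis. Probe set 209081_s_at read 5.41 and 5.84 in GFP cells and 6.46 and 6.45 in GFP-RhoGDI2 cells. Both GFP-RhoGDI2 arrays were above both GFP arrays, and they lay closer together than the GFP arrays. The log2 difference was 0.83 (SE 0.129, 95% interval 0.51 to 1.15, limma adjusted p = 0.0227), or 1.78-fold. The other probe set, 209082_s_at, differed by 0.39 (95% interval 0.16 to 0.62, adjusted p = 0.0658). COL15A1, the other multiplexin gene, was below the filter level on all 4 arrays, at 2.92 to 3.16.

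COL13A1, encoding a transmembrane collagen found at cell adhesion sites, rose from 5.96 and 6.05 in GFP cells to 6.58 and 6.82 in GFP-RhoGDI2 cells by 211343_s_at. The groups did not overlap, and the log2 difference was 0.69 (SE 0.097, 95% interval 0.45 to 0.93, limma adjusted p = 0.0175), or 1.62-fold. Of its other probe sets, 211809_x_at differed by 0.42 (adjusted p = 0.0535) and 208535_x_at by -0.04 (adjusted p = 0.865). With the mean of its probe sets COL13A1 was at 0.36 and the call was lost (adjusted p = 0.0568). Among the other transmembrane collagens, COL23A1 differed by -0.09 (95% interval -0.34 to 0.15, adjusted p = 0.589), and COL25A1 was below the filter level.

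COL12A1 fell. It encodes a FACIT collagen that associates with type I fibrils. Probe set 225664_at read 6.59 and 6.53 in GFP cells and 6.00 and 5.97 in GFP-RhoGDI2 cells. The arrays of each group lay close together and the groups did not overlap; the log2 difference was -0.58 (SE 0.092, 95% interval -0.80 to -0.35, limma adjusted p = 0.0244). The other 4 COL12A1 probe sets were below the filter level, with differences of -0.49, -0.30, -0.24 and 0.00. With the mean of all its probe sets the difference was -0.32 and the call was lost (adjusted p = 0.0662). Of the other FACIT genes, COL9A2 was tested and differed by 0.00 (95% interval -0.25 to 0.26, adjusted p = 0.984).

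Type IV collagen, the scaffold of the basement membrane, was lower by a small amount that did not pass the threshold. COL4A1 read 8.56 and 8.45 in GFP cells and 8.24 and 8.26 in GFP-RhoGDI2 cells, a difference of -0.25 (95% interval -0.49 to -0.02, limma adjusted p = 0.167). COL4A2, whose chain joins that of COL4A1 in the main type IV trimer, read 9.54 and 9.46 against 9.26 and 9.26, a difference of -0.24 (95% interval -0.47 to -0.01, adjusted p = 0.178). Neither pair of groups overlapped, which was also so for uncalled genes with smaller differences, such as COL1A1. The second probe set of COL4A1 differed by -0.21 (95% interval -0.50 to 0.08, limma adjusted p = 0.315). That of COL4A2 differed by -0.16 (95% interval -0.39 to 0.08, adjusted p = 0.349). The genes lie head to head on chromosome 13, 126 bases apart. The 5 tested genes on each side in gene order that are not collagens had a median difference of -0.20, with 1 called. The part of this neighbourhood in the COL4A1 and COL4A2 values was not tested. COL4A3, COL4A4, COL4A5 and COL4A6, which form the tissue-restricted type IV trimers, were below the filter level, with differences between -0.18 and 0.05.

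Around the called collagen chain genes the corresponding medians lay nearer 0, with some neighbours called. COL6A2, COL6A1 and COL18A1 lie near each other on chromosome 21, and most of their neighbours are shared. The 10 tested genes outside the family, 5 on each side in gene order, had a median difference of 0.01 around COL6A2, with 1 called. Around COL18A1 the median was 0.07 and 2 were called, and the highest neighbour was at 0.78 around COL6A2 and around COL18A1. Around COL5A1 on chromosome 9 the median was -0.08, around COL13A1 on chromosome 10 it was -0.07, and around COL12A1 on chromosome 6 it was -0.02; 1 neighbour each was called around COL13A1 and COL12A1, and the highest around COL12A1 was at 0.84. These values describe gene order only.

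The remaining tested members were COL7A1, the anchoring fibril collagen of epithelia, and COL26A1. COL7A1 read 5.83 and 5.53 in GFP and 5.62 and 5.57 in GFP-RhoGDI2 cells, with overlapping groups and a difference of -0.08 (95% interval -0.35 to 0.18, adjusted p = 0.662). COL26A1 differed by -0.20 (95% interval -0.45 to 0.05, adjusted p = 0.266). Of the 27 genes below the filter level, none reached that level in the mean of either group, and their differences ran from -0.30 to 0.43, with 19 of 27 under 0.1 in size. The arrays carry no detection calls here, so these are low values and not absences. They include the short-chain network genes COL8A1, COL8A2 and COL10A1, at -0.03 to -0.01, and the FACIT genes COL9A1, COL9A3, COL14A1, COL16A1, COL19A1, COL20A1, COL21A1 and COL22A1. COL9A3, a chain of the type IX collagen of cartilage, was at 0.73 in preparation A and -0.11 in preparation B, and COL16A1 was at 0.24 and 0.29. COL28A1 was at 0.09.

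All 4 rises were read by the same type of probe set, and only COL5A1 and COL6A2 also had tested probe sets outside the _s_at and _x_at classes. COL6A2, COL18A1, COL5A1 and COL13A1 were each read by a probe set whose identifier ends in _s_at, a class that can match several transcripts, whereas COL12A1 was read by one of the other class. With _s_at and _x_at probe sets left out, limma called 0 of 16 collagen chain genes higher, with 1 at an unadjusted p under 0.05, and 1 lower, COL12A1, beside 6.84% of all genes called in that fit. There COL5A1 was at 0.68 (adjusted p = 0.0529) and COL6A2 at 0.15 (adjusted p = 0.440), while COL13A1, COL18A1 and COL1A1 had no probe set left. The median filter, taken again over the remaining probe sets, was lower, so these 16 were not the same genes. COL26A1 passed by 229080_at at a mean of 4.29, and COL1A2, COL8A2 and COL9A1, untested in the main fit, entered. Over all 31 tested collagen probe sets, 5 were higher and 2 lower, beside 7.64% called among all tested probe sets; by any called probe set, COL27A1 joins the lower genes, and COL6A1 the higher ones solely through 213428_s_at, which passed the filter only through its GFP-RhoGDI2 values.

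The calls also rest on the paired fit with all 4 arrays. Without the block, 3 of the 16 genes were higher and 1 lower, beside 5.29% of all tested genes, and COL5A1 was the call lost. With 1 array left out, which does not allow the block, limma called 0 higher without GFP A, 2 without GFP B (COL18A1 and COL5A1), 1 without GFP-RhoGDI2 A (COL6A2) and 0 without GFP-RhoGDI2 B, and 0 lower in each. COL13A1 and COL12A1 were called in none of them, at adjusted p of 0.0507 to 0.133 and 0.0659 to 0.138. In each of these fits 4 genes were higher and 2 lower at an unadjusted p under 0.05, and 1.77% to 3.47% of all tested genes were called. COL5A1 moved from 0.49 without GFP A to 1.02 without GFP B, COL18A1 from 0.62 to 1.04, and COL6A2 from 0.71 without GFP-RhoGDI2 B to 1.31 without GFP-RhoGDI2 A, while COL12A1 kept between -0.61 and -0.55.

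Genes that act on collagen chains were described from lists of 79 genes in 5 groups, of which 77 were on the array and 52 were tested. Of these, 7 were higher and 2 lower, beside 4.83% higher and 3.35% lower among all tested genes. Of the 2 lower genes, VCAN passed the filter only through its GFP values. The counts in single lists rest on few genes and are given as descriptions. Among genes of collagen synthesis, folding and secretion, 3 of 23 rose and 0 fell in the limma fit, with 9 at an unadjusted p under 0.05 in either direction and a median difference of 0.09. P4HA2 and P4HA1 encode catalytic subunits of prolyl 4-hydroxylase, which stabilises the triple helix. P4HA2 read 9.13 and 8.94 in GFP and 10.27 and 10.19 in GFP-RhoGDI2 cells, a rise of 1.20 (SE 0.095, adjusted p = 0.00317). P4HA1 rose by 0.53 (adjusted p = 0.0309) and P3H2, a prolyl 3-hydroxylase gene, by 0.69 (adjusted p = 0.0200), though a second P3H2 probe set was at -0.04. P4HB, the beta subunit of prolyl 4-hydroxylase, differed by 0.38 (adjusted p = 0.0742). SERPINH1, the collagen chaperone HSP47, was below the filter level.

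Of 9 tested genes of procollagen processing and crosslinking, LOXL2 alone was called. This lysyl oxidase gene read 9.45 and 9.18 in GFP cells and 10.86 and 10.93 in GFP-RhoGDI2 cells, a rise of 1.58 (SE 0.117, adjusted p = 0.00254), and the second tested probe set rose by 1.32. The list median was 0.01. LOX was below the filter level.

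Of 6 tested collagen receptor genes, 2 rose and 1 fell. DDR2, a receptor tyrosine kinase for fibrillar collagen, read 6.57 and 6.40 in GFP cells and 7.48 and 7.39 in GFP-RhoGDI2 cells, a rise of 0.95 (SE 0.093, adjusted p = 0.00625), and 3 of its 4 probe sets were called higher. MRC2, an endocytic receptor that takes up collagen, rose by 0.63 by one probe set (adjusted p = 0.0205) and was at 0.09 by another (adjusted p = 0.696). ITGA2, the integrin subunit of a collagen receptor, read 7.93 and 8.01 against 6.998 and 7.32, a fall of 0.81 on the log2 scale (SE 0.106, adjusted p = 0.0147), and its second probe set was lower too. ITGB1, its partner subunit, differed by 0.14 (adjusted p = 0.384).

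Among 7 tested genes of collagen degradation, MMP2, a gelatinase that cuts denatured and type IV collagen, rose by 1.60 (SE 0.105, adjusted p = 0.00169), from 5.69 and 5.72 to 7.17 and 7.44. The collagenase gene MMP1 was at 0.54 in preparation A and 1.99 in preparation B, a mean of 1.26 that missed the threshold (adjusted p = 0.0712). Of 7 tested fibril-associated proteoglycan and glycoprotein genes, the versican gene VCAN fell from 6.89 and 6.93 to 3.64 and 3.96, by 3.11 on the log2 scale (adjusted p = 2.14e-04), and as its GFP-RhoGDI2 values lie below the filter level the size of that fall is uncertain; 0 were higher in the limma fit, with 2 of the list at an unadjusted p under 0.05. Decorin, biglycan and lumican, by DCN, BGN and LUM, were below the filter level.

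**Figure D4:**
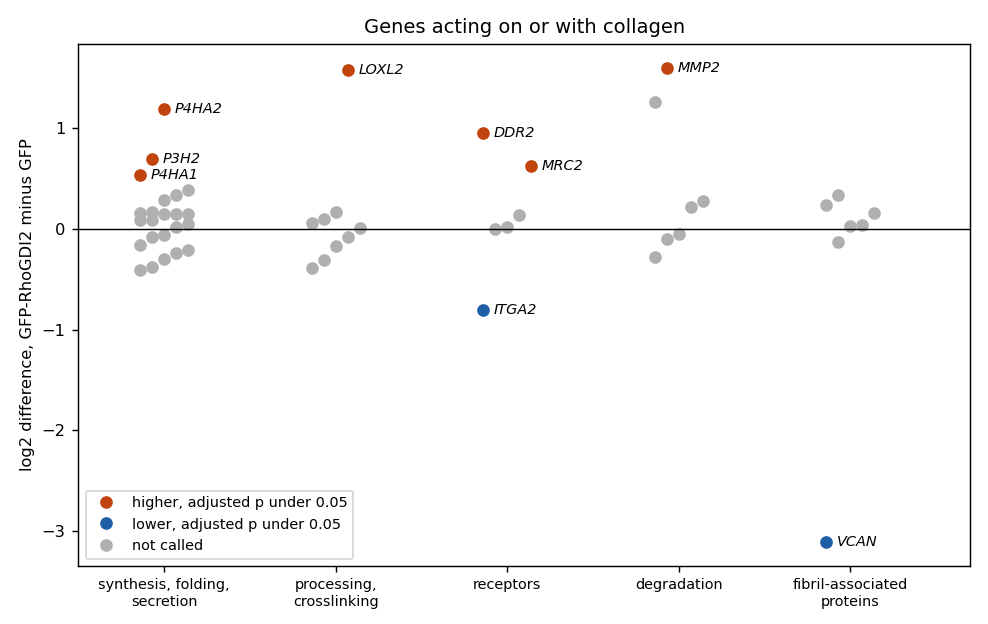
Log2 difference, GFP-RhoGDI2 minus GFP (vertical axis), of the 52 tested genes in the 5 lists of genes that act on or with collagen; coloured points passed an adjusted p under 0.05 and are named. P4HA2, P4HA1, P3H2, LOXL2, DDR2, MRC2 and MMP2 lie above 0.5, and ITGA2 and VCAN lie below 0.

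Few markers of fibroblasts, pericytes, blood, endothelium or urothelium passed the filter. Of those tested, 0 were called higher, beside 4.83% of all tested genes, which is too few tests to be informative. MFAP5, KRT8 and KRT18 were called lower, beside 3.35% of all tested genes. Of 10 fibroblast and pericyte markers, 5 were tested, 0 were higher and 1, the microfibril gene MFAP5, fell by 0.94. The pericyte marker RGS5 was at 0.36, with both GFP-RhoGDI2 arrays above both GFP arrays (adjusted p = 0.0742), so that 2 of the 5 had an unadjusted p under 0.05. The mean level over the 10 ran from 5.15 to 5.28 on the 4 arrays, and PDGFRA, PDGFRB, DPT, C7 and CSPG4 were below the filter level. For blood cells and for endothelium 1 of 6 markers on the array each was tested and 0 were called in the limma fit, with 0 at an unadjusted p under 0.05. Of 13 urothelial and epithelial markers, 4 were tested: KRT7, KRT8, KRT18 and GATA3. KRT8 and KRT18 fell by 1.23 and 0.59, and KRT5, KRT19, KRT20, CDH1, EPCAM and the uroplakin genes UPK1B, UPK2 and UPK3A were below the filter level. The uroplakin gene UPK1A, below the level in its mean over the 4 arrays and not tested, read 4.18 and 4.03 in GFP cells and 4.95 and 4.55 in GFP-RhoGDI2 cells. The part of these marker differences in the collagen values was not tested. The introduced gene was present as labelled: ARHGDIB read 6.51 and 6.27 in GFP cells and 11.94 and 11.58 in GFP-RhoGDI2 cells by 1 of its 3 probe sets, a difference of 5.37. Another was also called higher, at 0.94 (limma adjusted p = 0.00794), and the last was at -0.02 (adjusted p = 0.953). Array medians ran from 4.62 to 4.65.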

How the data were processed

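The deposited values are log2 expression; per the submitters' processing notes the authors used RMA, with no version named in these sources, and no further normalization was applied. Of 54675 probe sets, 62 controls were left out; of the rest, 41091 had 1 gene in the platform annotation, 1801 several and 11721 none listed. The 27307 probe sets with a mean at or above the median, 4.637, were tested (12123 genes).

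Differences were tested with limma 3.58.1 (lmFit, eBayes; R 4.3.3), with preparation as a block, since the labels state the pairing, and Benjamini-Hochberg adjustment over all tested probe sets. Across probe sets, A minus B in GFP cells correlated with A minus B in GFP-RhoGDI2 cells at r = 0.264. Residual degrees of freedom were 1, and moderation added 4.71. With the block, p-values weigh the difference between the lines against its variation from preparation A to B, moderated over all probe sets. With 1 residual degree of freedom beside 4.71, most of that estimate of variation came from the probe sets as a whole. The variation between preparations may be technical. The small number of arrays limits precision.

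Members, lists and tests were chosen with earlier results of these data known. All collagen chain genes are accounted for, and those tested are named with values; related genes are named where called, or among the largest changes of their list. DCN, BGN, LUM, LOX, SERPINH1, ITGB1 and P4HB, and cell markers not called, were named for their roles, after their values were seen. Alternatives tried were no block, leaving out each array, 2 other filters, a trend, robust moderation, quantile renormalization, a floor, probe set means, no _s_at or _x_at probe sets and a looser threshold; calls by any probe set were added after the data were seen. Promoter sequences are from RefSeq, GRCh38.p14; protein sequences were not used here.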

Additional observations from a re-analysis of the deposited data

How the results depend on the processing

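The 4 higher and 1 lower collagen chain genes kept their counts under robust moderation, quantile renormalization, a floor at the filter level and with no filter on low values. In the fits with a filter or floor, 7.23% to 9.07% of all genes were called. With no filter all 43 collagen chain genes were tested, beside 3.51% of all genes called. Leaving out 1 array gave 0 to 2 higher and 0 lower, and 5 to 6 related genes called, beside 9 with all arrays and the block. Without the replicate block 3 were higher, 1 lower and 8 related genes were called. With the filter raised to the upper quartile, 4 collagen chain genes remained: COL1A1, COL27A1, COL4A1 and COL4A2. The 4 higher genes and COL12A1 were removed by that filter, so this setting did not retest them. Of the remaining 4, 0 were higher by limma at an adjusted or unadjusted p under 0.05, and their median was -0.245. The 1 lower gene there was COL27A1, in a fit that called 25.2% of all tested genes. With an intensity trend 3 were lower, COL12A1, COL27A1 and COL4A2, and 17 related genes were called, beside 23.7% of all tested genes. At an adjusted p under 0.10, 2 were lower and 14 related genes were called, beside 16.3% of all tested genes. Probe set means gave 3 of 15 tested genes higher, without COL13A1, and 0 lower in limma, beside 9.66% of all genes called in that fit. There 4 were lower at an unadjusted p under 0.05. Leaving out _s_at and _x_at probe sets gave 0 higher, with 1 at an unadjusted p under 0.05. COL13A1 and COL18A1 had no probe set left there, so that setting did not retest them, and COL5A1 was at 0.68 (limma adjusted p = 0.0529). Counting any called probe set gave 2 lower. The causes of these moves were not tested beyond what each setting changes.

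Only uncalled genes changed sign. COL6A1 went to 0.316 and COL7A1 to 0.0316 with probe set means, COL11A2 to 0.016 and COL5A3 to -0.0391 without _s_at and _x_at probe sets, and COL9A2 to -0.0015 after renormalization. With 1 array left out, COL6A1 ran from -0.0969 to 0.0073, COL7A1 from -0.237 to 0.0691 and COL9A2 from -0.0918 to 0.101. With 2 arrays a group, differences of the size seen in COL4A1 and COL4A2 lie near the limit of these data, and 27 of 43 genes read below the filter level and were not tested.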
